A study of Mus musculus with 6 samples.

Results

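The small Maf genes Maff, Mafg and Mafk, the large Maf gene Maf, and 4 genes for their CNC (cap'n'collar) partners, Nfe2l1, Nfe2l2, Bach1 and Bach2, were examined in mouse cortical neurons with and without stimulation by NMDA, the agonist that names one class of glutamate receptor. The 8 genes were taken by symbol from the 38293 rows of the deposited count table, and each symbol matched 1 row. The set was chosen by the rise of Maff in this same comparison, known from an earlier look at these data, and the other 7 genes were added as its relatives and partners. All values of the 8 genes in this comparison are therefore given as a description, with calls from the fit across all genes as labels and no test drawn from them.

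Primary neurons of wild-type Swiss-Webster mouse embryos, dissociated on embryonic day 16, were studied on day 13 in vitro. The 3 control libraries came from untreated cultures, and the 3 NMDA libraries from cultures bathed in 50 µM NMDA for 10 minutes and then kept without the drug for 50 minutes. The labels do not say whether libraries of a group came from separate dissections, and the protocol names fewer biological replicates than there are samples, so errors measure the spread between these libraries, part of which may be technical. Library totals ran from 15417234 to 19183999 counted reads. All 8 genes passed the low-count filter, which left 14642 genes. A gene is said to have passed, or to be called, where its edgeR p-value adjusted over all these genes was under 0.05.

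Small Maf proteins are basic leucine zipper factors that bind DNA but carry no activation domain of their own. Paired with each other they occupy Maf recognition and antioxidant response elements without activating them, whereas paired with a CNC protein they form the working activator or repressor. NRF1 (Nfe2l1) and NRF2 (Nfe2l2) activate proteasome, antioxidant and detoxification genes, and BACH1 and BACH2 repress an overlapping set until heme or oxidative signals release them. In brain, NRF2 activity is known to be stronger in astrocytes than in neurons, and c-Maf, the product of Maf, marks microglia and a class of cortical interneurons.

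The cultures held transcripts of several cell types. Summed over each marker list, excitatory neuron markers lay between 961 and 1260 CPM (read counts scaled by library size), inhibitory neuron markers between 582 and 681, astrocyte markers between 2331 and 3855 and oligodendrocyte lineage markers between 541 and 1061. Microglial markers were near the floor, with a sum of 4.49 to 6.40 CPM and 2 of 10 genes passing the filter. Endothelial markers summed to 12.3 to 23.9 CPM, mostly Kdr (10.4 to 22.5 CPM), with 2 of 6 genes passing the filter. Cldn5 of that list was at 0 in every library. Fibroblast and mural cell markers summed to 113, 151 and 148 CPM in control replicates 1, 2 and 3 and to 142, 260.0 and 181 CPM in NMDA replicates 1, 2 and 3. That sum was higher after NMDA in each pair, by 0.34, 0.79 and 0.29 on the log2 scale. Most of the sum in every library came from the smooth muscle genes Tagln and Acta2. These 2 of the 8 genes passed higher within pairs, that is, with replicate number as a block (0.67 ± 0.08 and 0.56 ± 0.12). In that fit 5.65% of all tested genes passed higher and 8.35% lower. The rest of the list did not pass and went both ways, with Pdgfrb at 0.23 and Dcn at -0.18 within pairs. The excitatory neuron sum was lower after NMDA in each pair, with differences of -0.12, -0.23 and -0.26 on the log2 scale. Camk2a made up a large part of that sum, at 757, 611 and 671 CPM in control replicates 1, 2 and 3. In NMDA replicates 1, 2 and 3 Camk2a was at 578, 483 and 493 CPM. The list median log2 change was -0.011 without the block, beside -0.0054 for all tested genes. Within pairs 1 of the 8 excitatory markers passed lower, Camk2a (-0.39 ± 0.08), and 2 passed higher, Emx1 (0.54 ± 0.13) and Neurod2 (0.27 ± 0.08). In such bulk samples fewer cells of a type and less RNA per cell cannot be told apart.

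Maff was the member that changed most. Its level was 2.38, 1.95 and 1.27 CPM in control replicates 1, 2 and 3 and 15.96, 19.8 and 15.9 CPM in NMDA replicates 1, 2 and 3. The lowest NMDA library was thus several times above the highest control, and the groups did not overlap. The control values rest on 44, 35 and 24 reads, and counting error alone puts the smallest of these between 15.4 and 35.7 (exact 95% Poisson interval); the NMDA libraries held 238, 359 and 299 reads. On the log2 scale the fitted fold change was 3.21 ± 0.22 (SE, 3 libraries per group), a 9.22-fold difference and the 6th highest of all tested genes. Libraries of the same replicate number differed by 2.69, 3.27 and 3.54 on the log2 scale, so each pair showed it.

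Maff (ENSMUSG00000042622) lies on the plus strand of chromosome 15 from 79346621 to 79359076 on GRCm38, with 4 annotated protein-coding transcripts and an exonic length of 2594 bases. RefSeq (GRCm38.p6) gives promoter windows, each from 250 bases before to 50 bases after a transcription start, for 7 of the 8 members, 13 windows in all; Maf has no entry. The window of a Maff start is shown because it held the full cyclic AMP response element (CRE), the letters TGACGTCA, which none of the other 12 member windows held. The single windows of Mafk and Mafg are shown beside it, since these closest relatives differed less or did not pass. Capitals mark the full CRE or its 5-letter core TGACG, on either strand; sequences run 5′ to 3′ on the gene's strand, and positions are counted from 0 at the start.
Maff (chr15:79347270-79347569, plus strand): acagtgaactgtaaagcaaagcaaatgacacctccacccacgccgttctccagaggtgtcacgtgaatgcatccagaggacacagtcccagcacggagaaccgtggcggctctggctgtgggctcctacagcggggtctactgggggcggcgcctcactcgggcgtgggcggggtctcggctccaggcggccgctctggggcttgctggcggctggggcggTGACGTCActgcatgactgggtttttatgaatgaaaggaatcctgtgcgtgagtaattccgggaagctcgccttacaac
Mafk (chr5:139791286-139791585, plus strand): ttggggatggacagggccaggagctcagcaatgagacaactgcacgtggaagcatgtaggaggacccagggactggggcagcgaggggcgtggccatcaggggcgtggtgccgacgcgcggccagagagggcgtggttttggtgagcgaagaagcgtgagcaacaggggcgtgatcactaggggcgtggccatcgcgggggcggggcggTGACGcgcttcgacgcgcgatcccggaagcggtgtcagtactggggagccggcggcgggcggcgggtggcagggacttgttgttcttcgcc
Mafg (chr11:120633498-120633797, minus strand): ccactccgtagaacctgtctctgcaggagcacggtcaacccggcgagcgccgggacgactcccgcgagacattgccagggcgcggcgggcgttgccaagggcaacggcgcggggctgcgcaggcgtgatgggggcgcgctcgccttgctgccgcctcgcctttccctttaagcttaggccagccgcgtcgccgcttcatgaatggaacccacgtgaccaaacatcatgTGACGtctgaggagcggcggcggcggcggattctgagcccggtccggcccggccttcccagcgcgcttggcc
The full CRE of Maff begins at position -29. The Mafk window holds the TGACG core at position -41 and the Mafg window at position -22. Of 32851 RefSeq windows of this length, 1.79% held the full CRE and 20.8% the core, which every full CRE contains.

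The core also occurred in another Maff window and in 1 Nfe2l1 window, so 5 of 13 member windows and 4 of 7 genes held it, against 23% of all genes with a window. The core letters of the antioxidant response element, TGACNNNGC, were present in windows of Maff, Mafg, Mafk and Nfe2l2, 4 of 13 windows against 12.4% of all. The E box CACGTG was found in Maff, Mafg and Mafk, 3 of 13 windows against 7.15% of all. No member window held the AP-1 element TGANTCA (7.81% of all windows) or the CArG box, the binding letters of serum response factor (1.63%). All motifs were searched on both strands. These letters are a description of the windows: Mafg, which did not pass higher, also holds the CRE core, the response element core and the E box.

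Ranked by Pearson correlation, the genes whose log2 CPM over the 6 libraries followed Maff most closely among 12711 genes were Gadd45a, a DNA damage and stress response gene (Pearson r = 0.996), the peroxisomal protease gene Tysnd1 (0.996), the transcription factor gene Csrnp1 (0.996), the translation initiation factor gene Eif4a1 (0.995) and the orphan nuclear receptor gene Nr4a1 (0.991). The 6 points share the step between the 2 groups, which r reads without regard to its size. Mean Csrnp1 was 1.36 ± 0.125 CPM before and 4.73 ± 0.432 CPM after NMDA (SD, n = 3), while Eif4a1 stood at 409 ± 10.1 and 474 ± 6.52 CPM. Of the 5 genes, Csrnp1 and Nr4a1 passed the threshold and the other 3 did not.

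Mafk was the other small Maf gene with separate groups. Its level was 6.23, 8.17 and 7.23 CPM in control replicates 1, 2 and 3 and 12.3, 18.2 and 12.6 CPM in NMDA replicates 1, 2 and 3. Each NMDA library was above each control, NMDA replicate 2 most of all. That library was also the highest for Maff and for the summed fibroblast and mural markers, a sum carried mostly by Tagln and Acta2. The part of these markers in the Mafk and Maff values was not tested. The Mafk log2 fold change was 0.998 ± 0.19, with pair differences of 0.97, 1.14 and 0.80, and did not pass. When replicate numbers entered the model as a block (values "within pairs"), it was 0.99 ± 0.12 and passed. Mafk also passed without NMDA replicate 1 (1.11), without a low-count filter and in DESeq2 (1.01). Mafk (ENSMUSG00000018143) lies on chromosome 5 from 139791513 to 139802653 on the plus strand, and 169 bases of its exons overlap those of Tmem184a on the other strand, which had 0 to 4 reads per library.

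Mafg, the most abundant small Maf transcript of these cultures, was level or slightly lower. Its control libraries stood at 74.5, 66.3 and 67.7 CPM and its NMDA libraries at 68.3, 60.1 and 62.8 CPM in the order of replicates. The groups overlapped, because NMDA replicate 1 exceeded 2 of the controls. The difference of -0.13 ± 0.09 on the log2 scale had a 95% interval of -0.37 to 0.12, and the pairs gave -0.13, -0.14 and -0.11. Mafg did not pass with or without the block. Mafg (ENSMUSG00000051510) lies on chromosome 11 from 120625117 to 120633600 on the minus strand and shares 124 exonic bases with Sirt7, a deacetylase gene on the same strand, whose own values follow further on.

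**Figure D1:**
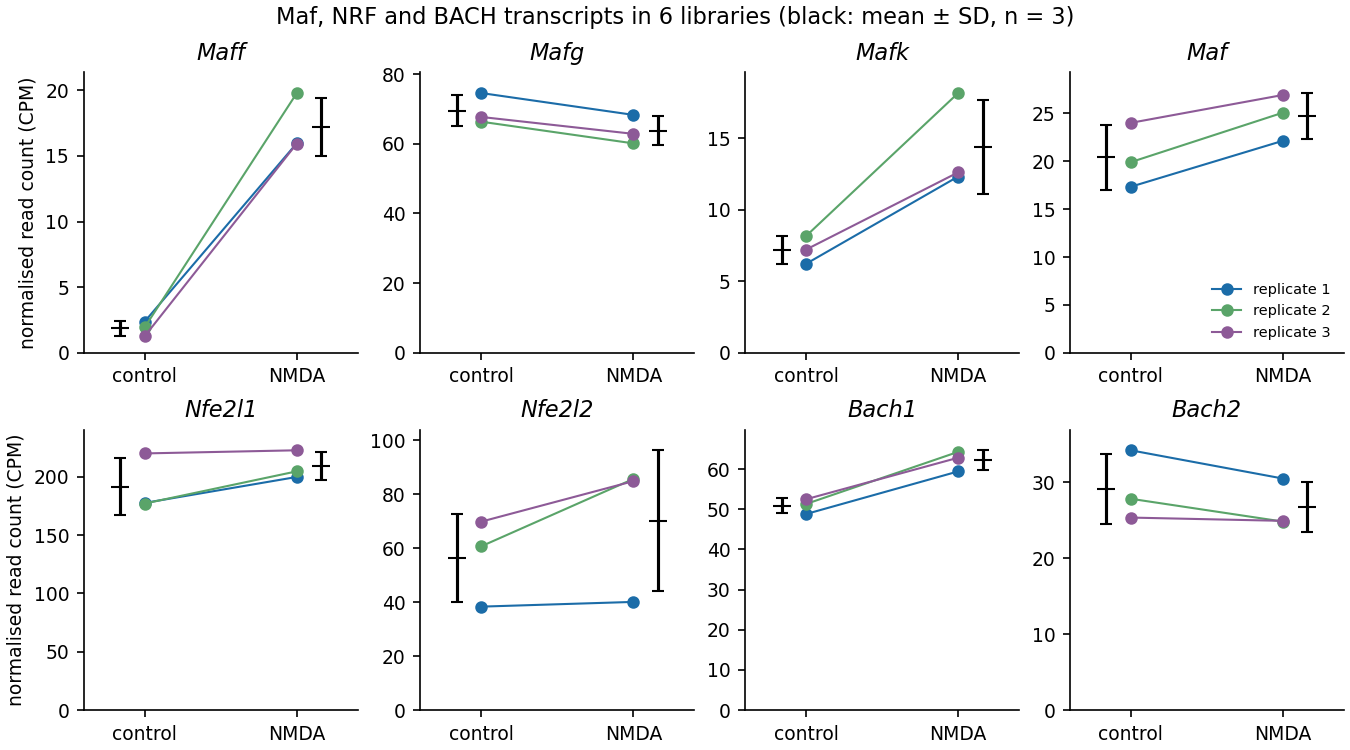
Normalised read counts (CPM, y axes from 0) of the 8 genes in control and NMDA libraries; coloured points joined by lines are libraries of the same replicate number, and black marks are the mean ± SD of 3 libraries. Maff, Mafk and Bach1 have NMDA libraries that all lie above the controls, Mafg and Bach2 are slightly lower after NMDA in each pair, and Nfe2l2 is lowest in replicate 1 of both groups.

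Set on one scale, per exonic length (RPKM, CPM per kilobase of annotated exon), the small Maf pool was larger after NMDA and differently made up. The 3 genes together amounted to 15.8, 14.7 and 14.4 RPKM in control replicates 1, 2 and 3 and to 21.5, 23.0 and 20.6 RPKM in NMDA replicates 1, 2 and 3. The means were 14.95 ± 0.743 and 21.7 ± 1.22 RPKM, 1.45 times as much after NMDA, and the groups did not overlap. Maff made up 5.82%, 5.12% and 3.39% of this pool in the controls and 28.6%, 33.2% and 29.9% in the NMDA libraries. The share of Mafg moved the other way, from 82.8 ± 1.92% to 52.5 ± 5.28%, although its own level changed little. Mafk held 12.4 ± 2.12% and 16.9 ± 2.95%. Without length scaling the Maff share was lower, 2.36% in control and 18.0% in NMDA libraries, since Mafg has the longer exons. Shares of transcript say nothing of protein.

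**Figure D2:**
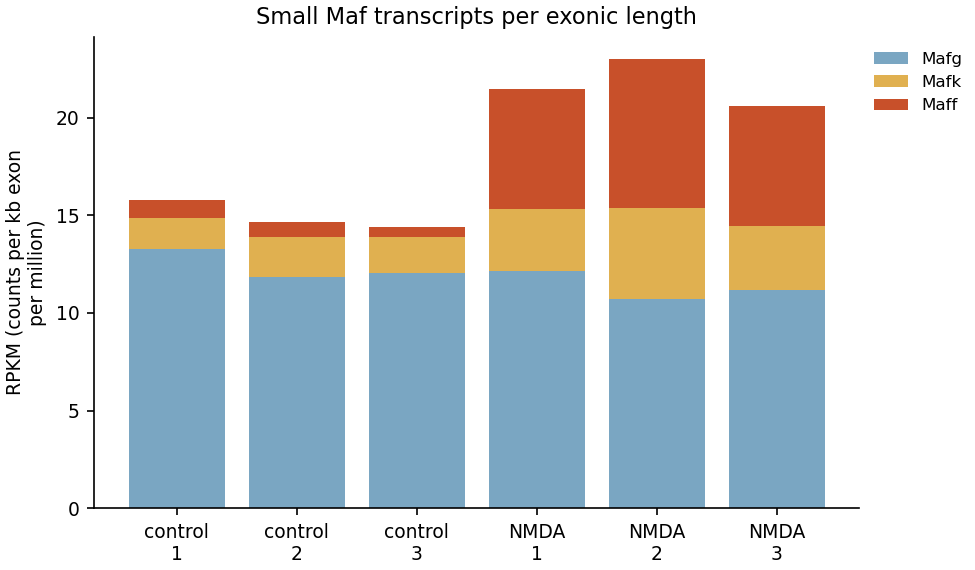
Stacked RPKM (counts scaled by library size and exonic length, y axis from 0) of Mafg, Mafk and Maff in each of the 6 libraries. The Maff segment widens from at most 5.82% of the stack in the controls to at least 28.6% in the NMDA libraries, while the Mafg segment stays similar in height.

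Maf, whose large protein has its own activation domain, was at 17.3, 19.9 and 24.0 CPM in control replicates 1, 2 and 3 and at 22.1, 25.1 and 26.9 CPM in NMDA replicates 1, 2 and 3. The groups overlapped, although each NMDA library lay above the control of the same number, by 0.35, 0.33 and 0.16 on the log2 scale. In log2 terms the change was 0.28 ± 0.14 without the block, which did not pass, and 0.28 ± 0.09 with it, which did. The blocked call was lost in DESeq2 with the block (0.29), without both libraries of replicate 1 (0.26) and without those of replicate 2 (0.25). Maf (ENSMUSG00000055435) lies on chromosome 8 from 115682942 to 115707794 on the minus strand; the antisense gene Gm15655 overlaps 440 exonic bases and had no reads.

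Beside the Maf values, inhibitory neuron markers summed to 582 to 610 CPM in the control group and 638 to 681 CPM in the NMDA group. Within pairs, where 5.65% of all tested genes passed higher, 2 of the 11 markers did. Those 2 were Sp9 (0.49 ± 0.10 within pairs) and the somatostatin gene Sst (0.26 ± 0.08). The other 9 did not pass and lay between -0.04 for Dlx1 and 0.43 for Npy within pairs, with Gad1 at 0.22 and Lhx6, which specifies interneurons of the medial ganglionic eminence, at 0.03. Microglial markers summed to 4.59 to 5.78 CPM in control and 4.49 to 6.40 CPM in NMDA libraries, so Maf was above the whole microglial list in every library. The part of cell composition in the Maf values was not tested. Nfe2l3, a further CNC family gene, was at -0.22 ± 0.21 (edgeR adjusted p = 0.67), and Mafa, Nrl and Nfe2 were too low to be tested.

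Among the NRF genes, Nfe2l1 was the most abundant member in every library. It stood at 177, 177 and 220 CPM in controls and 200, 205 and 223 CPM in NMDA libraries in the order of replicates. The ranges overlapped and the pairs gave 0.17, 0.21 and 0.02 on the log2 scale. A log2 fold change of 0.13 ± 0.11 (95% interval -0.17 to 0.42) did not pass with or without the block. Nfe2l1 (ENSMUSG00000038615) spans 96817414 to 96829968 on the minus strand of chromosome 11.

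Nfe2l2 varied more between replicate numbers than between groups. Its controls were at 38.4, 60.7 and 69.8 CPM and its NMDA libraries at 40.1, 85.7 and 84.8 CPM. Replicate 1 was the lowest library of either group, and NMDA replicate 1 was below 2 of the controls. Its log2 fold change was 0.32 ± 0.32 without the block and did not pass. Within pairs it was 0.29 ± 0.08 and passed, with pair differences of 0.06, 0.50 and 0.28. The blocked call was lost in DESeq2 with the block (0.30) and without both libraries of replicate 2, where the change was 0.18. Nfe2l2 (ENSMUSG00000015839) lies on chromosome 2 from 75675513 to 75704641 on the minus strand.

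Replicate 1 was also lowest in both groups for the summed astrocyte markers, though not for each gene. Their sum was 2331, 2418 and 3083 CPM in control replicates 1, 2 and 3 and 2552, 3122 and 3855 CPM in NMDA replicates 1, 2 and 3. The water channel gene Aqp4 was at 176, 256 and 357 CPM in controls and 196, 353 and 448 CPM in NMDA libraries. Aqp4, Atp1b2, Gfap, Gja1 and Sox9, 5 of the 9 markers, were lowest in replicate 1 of both groups, as Nfe2l2 was. The other 4 were not: Aldoc and Aldh1l1 had their highest control value in replicate 1, and Slc1a2 and Slc1a3 their lowest in replicate 2. Of the 9 markers, 8 passed higher within pairs, beside 5.65% of all tested genes, with a list median log2 change of 0.31. Whether astrocyte content has a part in the Nfe2l2 values was not tested.

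Bach1, the gene of a heme-sensitive repressor, had replicates close to each other. Its controls were at 48.8, 51.3 and 52.5 CPM and its NMDA libraries at 59.4, 64.3 and 62.8 CPM. The groups did not overlap, although the difference was only 1.22-fold. Without the block the log2 change was 0.29 ± 0.08 and did not pass; with it the change was 0.29 ± 0.07 and passed, with pair differences of 0.28, 0.32 and 0.26. Without both libraries of replicate 2 the blocked value was 0.27 and the call was lost. Bach1 (ENSMUSG00000025612) lies on chromosome 16 from 87698945 to 87733346 on the plus strand.

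Bach2, known best as a regulator of lymphocytes, did not follow Bach1. Its controls were at 34.2, 27.9 and 25.4 CPM and its NMDA libraries at 30.5, 24.8 and 24.9 CPM. The groups overlapped, with replicate 1 the highest of each, and the pairs gave -0.17, -0.16 and -0.02. Its log2 change of -0.12 ± 0.14 (95% interval -0.51 to 0.26) did not pass with or without the block; without control replicate 1 it was 0.0065. Bach2 (ENSMUSG00000040270) lies on chromosome 4 from 32238804 to 32586108 on the plus strand, and 537 exonic bases are shared with the antisense gene Bach2os, which had at most 9 reads in a library.

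Counted over the set, 1 of 8 genes was called higher and 0 lower by edgeR without the block, where 0.376% of all tested genes were called higher and 0.0546% lower, 0.43% in all. At an unadjusted p under 0.05 there were 3 higher and 0 lower, beside 5.19% and 8.47% of all tested genes and 13.7% in either direction. DESeq2 called 2 higher and limma-voom 1, and neither called any lower. Of all 14642 tested genes, DESeq2 called 149 higher and 157 lower, and limma-voom 53 higher and 7 lower. With the replicate block 5 of 8 were called higher, Maff, Mafk, Maf, Nfe2l2 and Bach1, and 0 lower, where 5.65% of all tested genes were called higher and 8.35% lower, 14% in all. The blocked count was 2 without both libraries of replicate 2, 4 without those of replicate 1, 5 without those of replicate 3, and 3 in DESeq2 with the block. Over all genes these fits called, in that order, 335, 1341, 705 and 433 higher and 683, 1366, 758 and 530 lower. They tested 14746, 14674, 14736 and 14642 genes. Groups did not overlap, with NMDA higher, for 3 members and for 8.18% of all tested genes; in either direction this held for 19.3% of genes. Because the set was chosen with this comparison in view, nothing is read from these counts. The median log2 change of the 8 was 0.28, beside -0.0054 for all tested genes.

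**Figure D3:**
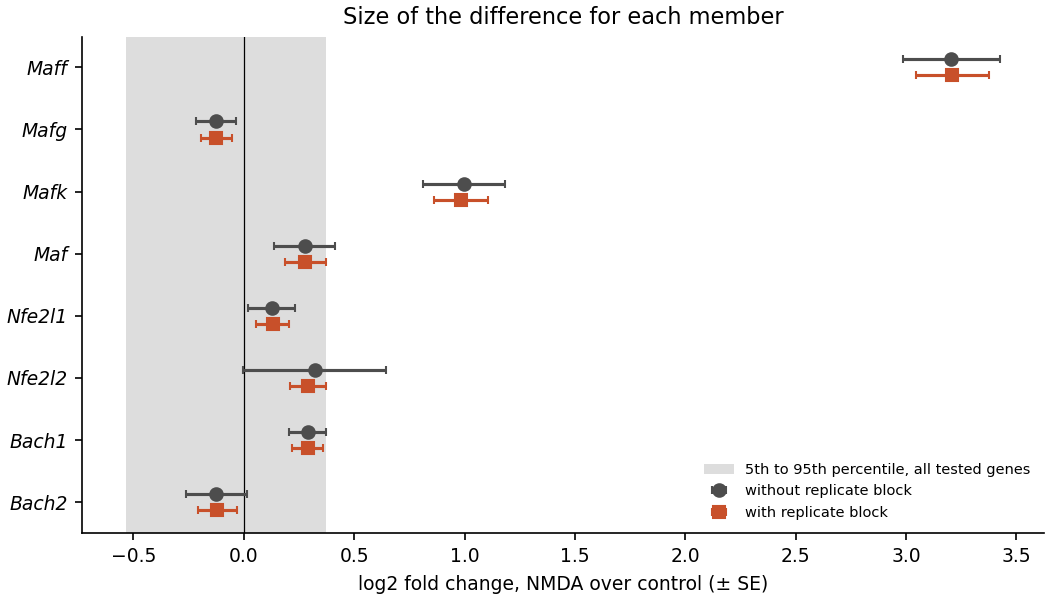
Log2 fold change of NMDA over control (x axis) with its SE for each gene, from the edgeR fit without (circles) and with (squares) the replicate block; the grey band runs from the 5th to the 95th percentile of all tested genes without the block. Maff at 3.21 and Mafk at 0.998 lie beyond the band, and the other 6 genes lie inside it; the SE of Nfe2l2 narrows most between the fits.

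Per exonic length, the control order was Nfe2l1 (35.2 ± 4.53 RPKM), Nfe2l2 (14.8 ± 4.27), Mafg (12.4 ± 0.785), Bach1 (8.23 ± 0.304), Bach2 (2.93 ± 0.460), Maf (2.48 ± 0.408), Mafk (1.85 ± 0.249) and Maff (0.719 ± 0.217). The ranges of Nfe2l2 and Mafg overlapped, as did those of Bach2 and Maf, and the other neighbours in this order were apart. After NMDA the first 4 kept their places, and Maff moved from the 8th place to the 5th at 6.64 ± 0.852 RPKM, followed by Mafk (3.69 ± 0.844), Maf (2.998 ± 0.293) and Bach2 (2.69 ± 0.327). In that order Maff was apart from both neighbours, while Mafk, Maf and Bach2 each overlapped the next. The ratio of small Maf to summed NRF and BACH transcript was 0.292, 0.246 and 0.206 in control and 0.358, 0.315 and 0.271 in NMDA replicates 1, 2 and 3. It was higher after NMDA in each pair, though the ranges of the groups overlapped.

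The genes these factors control were examined as lists of known targets. Of 30 NRF2 antioxidant and detoxification targets, 0 passed in edgeR without the block, where 0.43% of all tested genes passed. At an unadjusted p under 0.05 there were 3, beside 13.7% of all tested genes. DESeq2 called 1 higher, Hmox1, where it called 149 of all tested genes higher and 157 lower. Limma-voom called 0, where it called 53 of all tested genes higher and 7 lower. With the block 6 rose and 0 fell: Hmox1, Tkt, Srxn1, Txnrd1, Ephx1 and Gsta4. Of all tested genes, 5.65% were called higher and 8.35% lower with the block. The list median was 0.17, beside -0.0054 over all tested genes. The blocked count of rises was 14 without both libraries of replicate 1, 1 without those of replicate 2 and 5 without those of replicate 3. Of all genes, 1341 of 14674, 335 of 14746 and 705 of 14736 tested were called higher in those fits.

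Hmox1, which encodes the heme-degrading enzyme that BACH1 represses and NRF2 induces, was at 36.1, 37.1 and 40.3 CPM in control replicates 1, 2 and 3 and 45.2, 56.6 and 56.1 CPM in NMDA replicates 1, 2 and 3. Its groups did not overlap. Its log2 fold change was 0.48 ± 0.11 without the block (edgeR adjusted p = 0.13) and 0.47 ± 0.08 with it, where it passed, also when the libraries of any 1 replicate number were left out. It passed without NMDA replicate 1 as well (0.59). Smaller differences were seen for Tkt, a transketolase of the pentose phosphate pathway (0.27 ± 0.12, edgeR adjusted p = 0.354), Srxn1, which restores oxidised peroxiredoxins (0.29 ± 0.14, edgeR adjusted p = 0.39), and Txnrd1, the cytosolic thioredoxin reductase (0.25 ± 0.13, edgeR adjusted p = 0.42). These 3 rose within pairs by 0.27 ± 0.07, 0.28 ± 0.07 and 0.25 ± 0.07, and lost that call without both libraries of replicate 2. Srxn1 also lost it in DESeq2 with the block.

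Ephx1, an epoxide hydrolase gene, and Gsta4, a glutathione transferase gene, shared with Nfe2l2 a low replicate 1, though replicates 2 and 3 did not keep its order in both groups. The low replicate 1 was not particular to them: Gstm1 was at 277, 403 and 456 CPM in controls and 289, 553 and 530 CPM in NMDA libraries. Other targets had their highest control in replicate 1, such as Txn1 (190, 171 and 158 CPM) and Ftl1 (397, 279 and 248 CPM). Ephx1 was at 53.1, 78.3 and 93.0 CPM in controls and 58.7, 105 and 117 CPM in NMDA libraries. Gsta4 was at 54.4, 89.4 and 83.6 CPM in controls and 62.3, 106 and 99.1 CPM in NMDA libraries. Without the block the log2 changes were 0.32 ± 0.29 for Ephx1 and 0.24 ± 0.24 for Gsta4. Both genes lost the blocked call without both libraries of replicate 2. Gsta4 also lost it without those of replicate 3, with offsets for GC content and length, and in DESeq2 with the block. Classical targets that did not pass in either fit included Nqo1 (0.36 ± 0.27) and the glutamate-cysteine ligase genes Gclc (0.16 ± 0.13) and Gclm (0.10 ± 0.17).

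**Figure D4:**
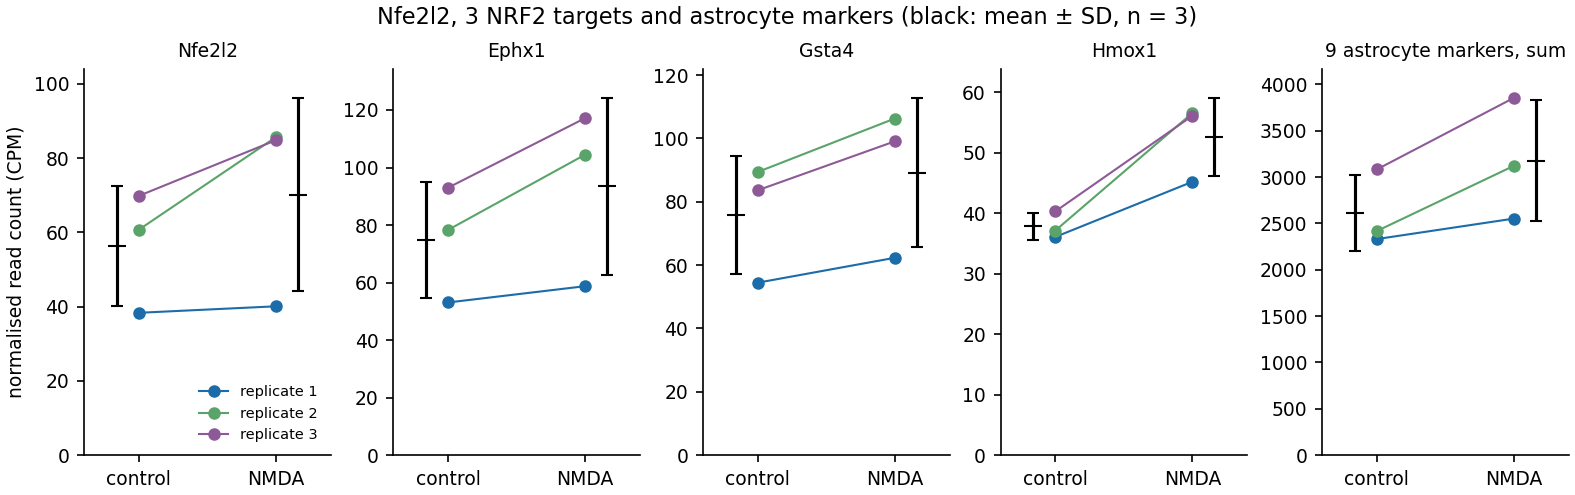
Normalised read counts (CPM, y axes from 0) of Nfe2l2, the NRF2 targets Ephx1, Gsta4 and Hmox1, and the sum of 9 astrocyte markers; lines join libraries of one replicate number and black marks are the mean ± SD of 3 libraries. Replicate 1 is the lowest library of each group in all 5 panels, and of the 5 only the Hmox1 groups do not overlap. Other NRF2 targets, such as Txn1 and Ftl1, did not have their lowest control in replicate 1.

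Of 20 genes for proteins that control NRF and BACH turnover or processing, 0 passed in edgeR without the block, where 0.43% of all tested genes passed. At an unadjusted p under 0.05 there were 3, beside 13.7% of all tested genes. DESeq2 called 1 lower, Ogt, where it called 149 of all tested genes higher and 157 lower. Limma-voom called 0, where it called 53 of all tested genes higher and 7 lower. Within pairs 3 rose and 2 fell, where 5.65% of all tested genes were called higher and 8.35% lower. The list median without the block was 0.03, beside -0.0054 over all tested genes. Ogt encodes the O-GlcNAc transferase, which modifies NRF1, and was at 472, 421 and 317 CPM in controls and 298, 247 and 191 CPM in NMDA libraries. Its groups did not overlap, and the log2 fold change was -0.72 ± 0.18 without the block (edgeR adjusted p = 0.17) and -0.72 ± 0.08 with it. The falls also included Amer1 (-0.24 ± 0.08 within pairs), a KEAP1-binding scaffold, whose call was lost in each of the other blocked fits (other scaling, offsets, DESeq2, or any 1 replicate number left out). The rises within pairs were Sqstm1 (0.32 ± 0.08), the autophagy adaptor p62 that sequesters KEAP1, Vcp (0.31 ± 0.08), the segregase that extracts NRF1 from the endoplasmic reticulum, and Gsk3a (0.23 ± 0.07), a kinase that marks NRF2 for degradation. Without both libraries of replicate 2, Ogt alone of these 5 kept its call. Gsk3a also lost its call without those of replicate 3, with offsets for GC content and length, and in DESeq2 with the block. Keap1 itself was at 0.11 ± 0.11 and Cul3, its ubiquitin ligase partner, at 0.09 ± 0.09, and neither passed in either fit.

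Proteasome and heme genes passed in neither fit. Of 32 genes for subunits of the 26S proteasome, the classical NRF1 targets, 0 were called by edgeR with or without the block. Of all tested genes 14% were called with the block and 0.43% without it. DESeq2 and limma-voom also called 0 of the 32, where they called 149 and 53 of all tested genes higher and 157 and 7 lower. At an unadjusted p under 0.05 there were 2, beside 13.7% of all tested genes. The log2 changes of the 32 subunits lay between -0.14 and 0.23 with a median of 0.09, beside -0.0054 over all tested genes. Groups did not overlap for 8 subunits with NMDA higher and 0 with NMDA lower. Over all tested genes this held for 8.18% and 11.1%. Adrm1 (0.23 ± 0.09, edgeR adjusted p = 0.31) and Psmb7 (0.19 ± 0.08, edgeR adjusted p = 0.32) had the smallest p of the list. In the blocked fit without both libraries of replicate 1, 3 of the subunits passed higher, beside 1341 of all 14674 tested genes. With the block, 1 passed higher with DESeq2 size factors and 2 with offsets for GC content and length. Of all 14642 tested genes, 926 and 889 passed higher in those fits. Of 16 genes of heme synthesis, breakdown and iron transport, 0 were called by the same tools. At an unadjusted p under 0.05 there was 1, beside the same 13.7% of all tested genes. The median of these heme and iron genes was -0.0083 (0.0019 with DESeq2 size factors). Fech, which adds the iron in the last step of heme synthesis, was at 0.19 ± 0.08 (edgeR adjusted p = 0.35). Ppox, an earlier enzyme of that path, was at -0.40 ± 0.22 (edgeR adjusted p = 0.46). Among the other blocked fits, Fech passed higher with the offsets (0.27), and Ppox passed lower without both libraries of replicate 3 (-0.57).

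**Figure D5:**
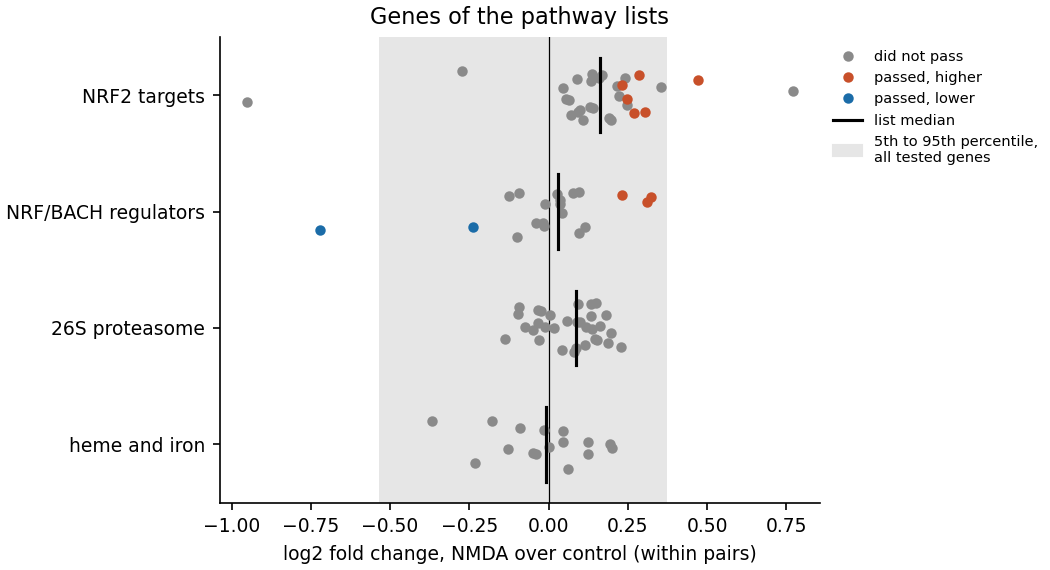
Log2 fold change of NMDA over control within pairs (x axis) for each tested gene of 4 lists (rows, points spread vertically for visibility), coloured by the call of the blocked edgeR fit, with the list median as a bar and the 5th to 95th percentile of all tested genes in grey. Of the NRF2 targets 6 passed higher, of the regulators 3 passed higher and 2 lower, and no proteasome or heme gene passed. Of all tested genes 5.65% passed higher and 8.35% lower in that fit.

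The nearest protein-coding gene on either side of each member was added after the member values were seen, by position alone. Of these 16 neighbours 14 could be tested, and 0 were called by edgeR without the block, where 0.43% of all tested genes were called. With it 1 was called higher and 2 lower, where 5.65% of all tested genes were called higher and 8.35% lower, 14% in all. Nothing about the loci is read from these counts. Maff and Mafk each lie next to a gene of the Tmem184 family: Tmem184b lies 1.6 kb beyond Maff and Tmem184a overlaps the end of Mafk. Mean Tmem184b was 25.9 ± 2.41 CPM without and 28.5 ± 4.13 CPM with NMDA (log2 0.14 ± 0.13, edgeR adjusted p = 0.66) and Pla2g6, a phospholipase gene 18.2 kb on the other side of Maff, at 13.2 ± 0.205 and 11.7 ± 0.361 CPM (log2 -0.18 ± 0.12, edgeR adjusted p = 0.54). Neither neighbour of Maff passed in either fit.

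Sirt7, which overlaps Mafg, was at 36.9, 26.6 and 22.2 CPM in controls and 20.1, 16.1 and 15.4 CPM in NMDA libraries. Its groups did not overlap, and its log2 fold change was -0.73 ± 0.19 without the block (edgeR adjusted p = 0.17) and -0.71 ± 0.10 with it, where it passed. Ints1, a subunit gene of the Integrator complex 15.8 kb from Mafk, fell within pairs by 0.29 on the log2 scale, and Hnrnpa3, an RNA-binding protein gene 6.1 kb from Nfe2l2, rose by 0.24.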

How the data were processed

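RNA was measured in 6 libraries, 3 control and 3 NMDA, grouped by their titles. Gene-level raw counts were made and deposited by the authors. Trimmomatic, TopHat and HTSeq, with mm10 and GRCm38.p6 as builds, come from the submitters' processing notes; tool versions, annotation and strand setting were not given in the sources. Here, edgeR 4.0.16 in R 4.3.3 was run on the counts: genes were kept by filterByExpr (count of 10, total of 15), scaled by TMM and tested with the robust quasi-likelihood F test on group alone, with Benjamini-Hochberg adjustment over 14642 genes with a threshold of 0.05, so an adjusted p below it is called "passed". SE is the log2 coefficient divided by the root of F, and 95% intervals use 4 residual degrees of freedom. CPM use TMM factors; RPKM divide CPM by the union of GENCODE M21 exons (GRCm38), known for 36429 of 38293 rows. Rows with a blank symbol (2153) stayed in the tests.

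Replicate numbers were checked for pairing before calls were compared: same-numbered control and NMDA libraries had deviations from their group means with r of 0.54, 0.38 and 0.49, against -0.41 to -0.02 for other pairs. The numbers were therefore taken to pair the libraries, from the data and not the labels, and the fit with the number as a block ("within pairs", 2 residual degrees of freedom) is given where it changes a call. Libraries of a group differed beyond sampling noise (chi-square per degree of freedom 8.27 to 58.7), so none was a copy.

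Alternatives used DESeq2 1.42.0 and limma 3.58.1 (voom); offsets for GC content and length (mgcv 1.9.3), DESeq2 with the block and the blocked fit without 1 pair were added after seeing the data. The members, gene lists, naming rule and tests were chosen with earlier results of these data known. The naming rule took all 8 members and the 5 genes most correlated with Maff. From each list it took up to 4 genes with the smallest p among those that passed in either fit, otherwise the 2 smallest. Other genes named (Amer1, Ephx1, Gsta4, Gstm1, Txn1, Ftl1, Nqo1, Gclc, Gclm, Keap1 and Cul3) were added after their values were seen. So were cell type markers, neighbours and overlapping genes. The fits were tested on simulated data. Figures were drawn with matplotlib 3.10.9. 1 gene of the family list is not reported here.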

Additional observations from a re-analysis of the deposited data

How the results depend on the processing

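The log2 change of Maff stayed between 2.99 and 3.49 and past the threshold under all 20 alternatives, and those of Mafg, Mafk, Maf, Nfe2l1, Nfe2l2 and Bach1 kept their sign under all 20; Bach2 changed sign without control replicate 1 and ran from -0.22 to 0.0065 over single libraries left out. Members called higher, 1 in the reported fit, were 2 without a low-count filter, 2 in DESeq2, 5 with the replicate block, 5 with the block and DESeq2 size factors, 5 with the block plus offsets for GC and length, 3 in DESeq2 with the block, and 4, 2 and 5 in the blocked fit without replicate 1, 2 or 3; leaving out 1 library gave 1 to 2, and none was called lower anywhere. Genes of the 5 pathway lists called higher, in the same order of settings, were 1, 1, 9, 11, 10, 6 and 21, 1 and 7, against 0 as reported, and 0 to 1 with a library left out; those called lower were 1 in DESeq2, 2 with the block, 1 with the block and DESeq2 size factors, 1 with the block and offsets, 1 in DESeq2 with the block, and 1, 1 and 3 in the blocked fit without replicate 1, 2 or 3, against 0. Over all genes, 55 higher and 8 lower became 130 and 130 without a filter, 149 and 157 in DESeq2, 828 and 1223 with the replicate block, 926 and 1151 with the block and DESeq2 size factors, 889 and 1108 with the block and offsets, 433 and 530 in DESeq2 with the block, and 1341 and 1366, 335 and 683, and 705 and 758 in the blocked fit without replicate 1, 2 or 3. Lower genes were 5 with DESeq2 size factors and 4 with offsets; leaving out 1 library gave 19 to 89 higher and 0 to 57 lower. The Maff share of the small Maf pool was 4.77% in control and 30.6% in NMDA libraries per exonic length, and 2.36% and 18.0% without length scaling; leaving out a library gave 4.25% to 5.47% and 29.3% to 31.5%. The causes were not tested. Counts of 24 to 44 reads limit the precision of the Maff control level.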

Other observations

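Slc7a11, the cystine importer gene of the NRF2 list, had the largest SE of its log2 fold change among the 30 targets and was chosen after its values were seen. It was at 236, 138 and 199 CPM in control replicates 1, 2 and 3 and at 232, 80.4 and 45.0 CPM in NMDA replicates 1, 2 and 3. Replicate 1 was nearly the same in both groups, while NMDA replicates 2 and 3 were below every control. The log2 fold change was -0.69 ± 0.62 without the block (edgeR adjusted p = 0.67) and -0.95 ± 0.60 with it, and it passed in neither; in the blocked fit without both libraries of replicate 3 it passed lower (-0.38). Osgin1, an oxidative stress growth inhibitor gene, had the highest log2 change of the list, 0.79 ± 0.41 (edgeR adjusted p = 0.42), at 0.650 to 1.42 CPM in control and 1.27 to 2.93 CPM in NMDA libraries.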
